A study of Oryza sativa Japonica Group with 10 samples.

Results

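Shoots of rice seedlings that had run short of water were compared with shoots of well-watered seedlings of the same wild type, gene by gene. The wild type was ZH11 (Zhonghua 11), a japonica cultivar. The comparison rested on 2 libraries of plants at the four-leaf stage held, per the labels, at a soil water content of 10 to 15% and on 3 libraries of plants of the same stage under normal conditions, which are 5 of the 10 libraries of the series. For its survival tests of seedlings the study gives another range of soil water. The other 5 came from 1 line that overexpresses OsJAZ1 from the drought-inducible OsLEA3-1 promoter in the ZH11 background. Here they entered the filter that set the genes tested, the scaling and the estimate of spread between libraries. They were not part of the comparison itself. A further drought replicate of ZH11 was excluded by the authors and was not analysed here. All 24850 genes with enough fragments to be tested were compared, and 51 lists of genes with a known role, holding 456 tested genes between them, were then followed in detail.

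Drought reaches a shoot mainly through abscisic acid (ABA), a hormone that is made by cleavage of carotenoids, bound by PYL receptors and passed on through clade A protein phosphatases 2C (PP2C) and SnRK2 kinases to bZIP transcription factors. The best known targets encode late embryogenesis abundant (LEA) proteins, enzymes that make compatible solutes, and chaperones, all of which protect membranes and proteins as cells lose water. Growth, photosynthesis and the synthesis of chlorophyll are usually lowered in the same leaves.

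Levels are given as FPKM, in which the fragments of a transcript are divided by its length and by the depth of the library, added up over all transcripts of a gene. Where a gene is given with 5 values, they stand in the order of normal replicates 1, 2 and 3 and then of drought replicates 1 and 2. Changes are log2 fold changes of drought over normal with their standard errors, and the adjusted p comes from edgeR's quasi-likelihood test with Benjamini-Hochberg adjustment over all genes tested. A gene is said to have risen or fallen at an adjusted p under 0.05, and to be called where the change was also at least 1 on the log2 scale. The study calls its replicates biological, but the sources do not say whether each was a plant, a pool or a separate treatment. With 3 and 2 libraries per group, the p-values measure the spread between libraries of a group, pooled over all 10 libraries.

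Of the 24850 genes, 5366 rose (21.6%) and 5678 fell (22.8%), so 44.4% passed the threshold on p and the median change was 0.00. With the limit on the change, 1325 genes (5.33%) were called up and 2245 (9.03%) down, 14.4% in all. The 3 normal libraries did not overlap the 2 drought libraries in FPKM at 62.4% of the genes tested. Totals of estimated fragments were 33022102 to 34027909 per library, so counting error was small for all but the least expressed genes named here. Between the drought libraries 2.25% of 14781 genes that averaged 5 FPKM or more differed by more than 2-fold, against 0.667 to 1.42% for pairs of normal libraries. For the drought pair of the overexpressing line, which entered the same estimate of spread, it was 0.84%. Each ZH11 drought library is therefore given on its own throughout. Some markers of other organs were near 0. The root gene RCc3 was at 0.416, 0.285 and 0.0904 FPKM under normal conditions and at 0 in both drought libraries. The nitrate transporter gene OsNRT2.1 was at 0 in all 5, and the meristem gene OSH1 was at or below 0.0243 FPKM in all 5. The seed storage genes GluA1 and GluA2 summed to 0.000404 to 0.000529% of all FPKM in the normal libraries and 0.000468 and 0.000385% under drought. For OSH1 with the flower genes MADS14 and MADS15 the sums were 0.000413 to 0.000458% and 0.000369 and 0.000348%. Other root genes were measurable, Lsi1 at 4.52, 4.8 and 4.93 FPKM under normal conditions and 10.1 and 11.6 FPKM under drought (log2 fold change 1.09 ± 0.13, adjusted p = 7.8e-05) and OsIRT1 at 3.94, 3.46 and 3.91 FPKM under normal conditions and 2.55 and 2.19 FPKM under drought (adjusted p = 0.0147), and their part in the results below was not tested. LOC_Os03g10090 was listed with the root genes but its name could not be matched. It fell from 170, 176 and 166 to 117 and 118 FPKM (log2 fold change -0.58 ± 0.05, adjusted p = 6.8e-06) and made up most of the list's summed share, 0.0196 to 0.0213% of all FPKM in the normal libraries and 0.0141 and 0.0144% in the drought libraries.

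The single genes that moved most were mostly without a known name. LOC_Os06g51440 (chr6:31157329-31158297; positions here and below are those of the authors' files, and the sources used here do not give their genome build) was at or near 0 in the normal libraries and at 10.1 and 10.5 FPKM under drought. LOC_Os05g05930 (chr5:2969525-2970353) had no fragments in any normal library and reached 17 and 30.1 FPKM. In the other direction LOC_Os10g05950 (chr10:2999296-3001254) went from 61.8, 94.1 and 55.8 to 0.609 and 1.27 FPKM (log2 fold change -6.3 ± 0.38, adjusted p = 5.1e-07). No role is given to these loci here.

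Synthesis of ABA was raised at 2 of its control genes and lowered at others. The step that limits it is the cleavage of carotenoids by 9-cis-epoxycarotenoid dioxygenases (NCED), and the 5 NCED genes measured moved in different directions. NCED3 (chr3:24959107-24961777) was at 1.33, 1.0 and 1.65 FPKM under normal conditions and 28.3 and 30.9 FPKM under drought, a rise of 22.3-fold in mean level (log2 fold change 4.41 ± 0.20, adjusted p = 5.3e-08). NCED4 rose from 0.577, 0.612 and 0.347 to 25.9 and 15.9 FPKM (log2 fold change 5.24 ± 0.50, adjusted p = 1.4e-05). Both drought libraries stood far above all 3 normal ones at these genes. NCED5, by contrast, fell from 4.5, 4.58 and 5.13 to 1.23 and 1.74 FPKM (log2 fold change -1.72 ± 0.18, adjusted p = 3.1e-05), and the weakly expressed NCED2 fell by 3.3 on the log2 scale (adjusted p = 0.00137). The most abundant member, NCED1, was at 447, 423 and 462 FPKM under normal conditions and 391 and 416 FPKM under drought and did not pass (log2 fold change -0.22, adjusted p = 0.067). The summed share of the 7 synthesis genes in the FPKM pool, most of it from NCED1 and OsABA1, was 0.0955 ± 0.0032% (SD, n = 3) under normal conditions and 0.0826 ± 0.00154% (SD, n = 2) under drought. OsABA1, which encodes zeaxanthin epoxidase upstream of the cleavage step, fell by 0.39 (adjusted p = 0.00329) from 392, 353 and 385 to 311 and 266 FPKM. Over the list, 2 of 7 genes rose and 3 fell.

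Removal of ABA starts with its 8'-hydroxylation, and all 3 hydroxylase genes passed the test. ABA8ox1 (chr2:28995717-28998581) was at 1.92, 1.82 and 2.18 FPKM under normal conditions and 29.1 and 5.6 FPKM under drought (log2 fold change 3.1 ± 0.50, adjusted p = 5.6e-04). It lay above the normal libraries in both drought libraries, but replicate 1 was 5.2 times replicate 2. ABA8ox2 rose from 14.1, 14.5 and 15 to 25.3 and 26.1 FPKM (log2 fold change 0.79 ± 0.07, adjusted p = 7.9e-06), with the drought libraries close together. ABA8ox3, the most abundant of the 3 under normal conditions, fell from 21.2, 21 and 22.4 to 15.7 and 11.8 FPKM (log2 fold change -0.73 ± 0.11, adjusted p = 4.1e-04).

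Most receptor genes tested fell in the joint fit and most genes of their phosphatase partners rose, but the most abundant receptor gene rose too. Of 6 PYL receptor genes tested, 1 rose and 4 fell (2 without drought replicate 1), with a median change of -0.96. The largest fall was at LOC_Os03g18600 (chr3:10418634-10419919), from 48.5, 48.9 and 56.7 to 7.98 and 8.78 FPKM (log2 fold change -2.68 ± 0.12, adjusted p = 6.9e-08). LOC_Os05g12260, the most abundant receptor gene, rose from 68.5, 67.1 and 65.9 to 92.8 and 96 FPKM (log2 fold change 0.47 ± 0.07, adjusted p = 2.9e-04). LOC_Os02g15640, the next most abundant, was at 53.5, 51.5 and 54.8 FPKM under normal conditions and 51 and 49.9 FPKM under drought and did not pass (adjusted p = 0.47). The falls at the rare LOC_Os05g39580 and LOC_Os06g36670, with adjusted p of 0.018 and 0.0164, did not pass once drought replicate 1 was left out (0.122 and 0.0846). In contrast, 8 of 9 clade A PP2C genes rose, and all 8 were called, where 5.33% of all genes were called up. Their products hold the kinases inactive until ABA-bound receptors capture them. OsPP2C68 (chr9:9567471-9568905) went from 10.1, 12.1 and 9.98 to 187 and 203 FPKM (log2 fold change 4.12 ± 0.09, adjusted p = 1.5e-09). OsPP2C49 (chr5:22450676-22452631) went from 6.66, 8.17 and 8.13 to 136 and 179.8 FPKM (log2 fold change 4.29 ± 0.13, adjusted p = 3.7e-09). OsPP2C09 reached the highest level, 430.4 and 507 FPKM against 93.8, 83.6 and 90.4 FPKM. The exception was OsPP2C53, at 20.8, 19.7 and 19.2 FPKM under normal conditions and 21.2 and 19.4 FPKM under drought (log2 fold change 0.02, adjusted p = 0.896). The drought libraries differed little here: the median log2 ratio of replicate 1 over replicate 2 was -0.13, and the summed share of the list went from 0.0273 ± 0.000583% (SD, n = 3) to 0.158 ± 0.0121% (SD, n = 2) of all FPKM.

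The SAPK genes encode the SnRK2 kinases of rice, and their changes were smaller. Of 10 genes, 7 rose and 2 fell (median 0.50), and only SAPK3 and SAPK6 reached a change of 1. SAPK6 was at 29.7, 29.7 and 28 FPKM under normal conditions and 78.3 and 73.2 FPKM under drought (log2 fold change 1.37 ± 0.05, adjusted p = 2.5e-08). SAPK3 rose from 27.9, 27.1 and 29.1 to 56.9 and 59.8 FPKM (log2 fold change 1.05 ± 0.06, adjusted p = 5.4e-07). SAPK2, the most abundant kinase gene under normal conditions, fell from 67.3, 63.7 and 65.4 to 49.4 and 40.4 FPKM (log2 fold change -0.54 ± 0.08, adjusted p = 4.3e-04). The rise of SAPK8 (log2 fold change 0.37, adjusted p = 0.00624) did not pass without drought replicate 2 (adjusted p = 0.0807). Among the bZIP factors that the kinases phosphorylate, 5 of 6 rose. OsbZIP23, a regulator of drought tolerance, went from 18.8, 18.3 and 16.8 to 112 and 109 FPKM (log2 fold change 2.6 ± 0.07, adjusted p = 2.4e-09), and OsbZIP12 from 15.8, 16 and 16.8 to 65.1 and 55.3 FPKM (log2 fold change 1.93 ± 0.07, adjusted p = 1.8e-08). TRAB1, OsbZIP46 and OsbZIP72 rose by 0.95, 0.87 and 0.78. OsbZIP62 fell from 22.2, 16.6 and 18.5 to 12.6 and 12 FPKM (log2 fold change -0.70 ± 0.15, adjusted p = 0.00316).

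**Figure D1:**
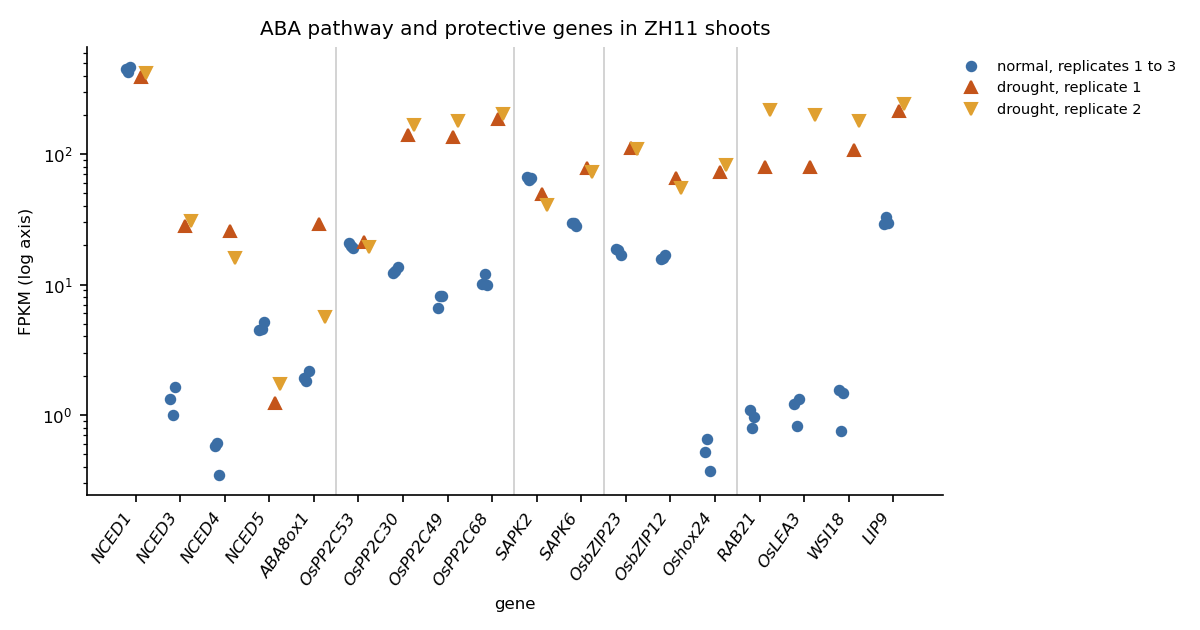
FPKM of each ZH11 library (log axis) for genes of ABA synthesis and removal, PP2C phosphatases, SAPK kinases, transcription factors and protective proteins, separated by grey lines; circles are the 3 normal libraries, upward triangles drought replicate 1 and downward triangles drought replicate 2. NCED1 and OsPP2C53, which did not pass, lie at or close to their normal levels, while NCED3, OsPP2C49, OsPP2C68 and Oshox24 lie well above it in both drought libraries, and ABA8ox1 is at 29.1 FPKM in replicate 1 and 5.6 FPKM in replicate 2.

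Genes of protective proteins rose furthest. All 10 LEA and dehydrin genes tested rose and were called, with a median change of 6.56, where 5.33% of all genes were called up. RAB21 (chr11:15342564-15343857), a dehydrin gene, was at 1.1, 0.794 and 0.97 FPKM under normal conditions and 79.2 and 218 FPKM under drought (log2 fold change 7.23 ± 0.44, adjusted p = 5.1e-07). OsLEA3 (chr5:26927607-26928902) went from 1.21, 0.826 and 1.33 to 80.0 and 198 FPKM (log2 fold change 6.89 ± 0.38, adjusted p = 2.4e-07) and WSI18 from 1.56, 0.751 and 1.48 to 107 and 178 FPKM (log2 fold change 6.73 ± 0.33, adjusted p = 1.2e-07). RAB16C, which lies in the same cluster as RAB21, started from a higher level and rose from 11, 11.7 and 11.1 to 29.6 and 49.3 FPKM (log2 fold change 1.78 ± 0.19, adjusted p = 3.1e-05). The RAB16 genes are close copies of each other, and fragments shared between them may be divided unevenly. WSI724 rose from 6.87, 4.93 and 4.91 to 30.4 and 30.7 FPKM with no gap between the drought libraries. The seed gene OsEM1 stayed at 0, 0 and 0 and then 0.114 and 0.353 FPKM and was not tested. Drought replicate 2 was the higher of the pair at all 10 tested genes, by more than 2-fold at 6 of them.

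Genes that make compatible solutes rose at most steps. Proline is made from glutamate by P5CS or from ornithine by OAT and is broken down by ProDH. OAT rose from 13.5, 12.8 and 13.4 to 37.6 and 39.8 FPKM (log2 fold change 1.57 ± 0.06, adjusted p = 2.1e-08), P5CS1 from 10.8, 11.9 and 9.85 to 22.3 and 21.5 FPKM (log2 fold change 1.05 ± 0.08, adjusted p = 1.8e-06) and the weaker P5CS2 by 1.07. ProDH fell from 60.4, 51.3 and 58 to 27 and 21.9 FPKM (log2 fold change -1.28 ± 0.15, adjusted p = 5.3e-05). P5CR, the last step of synthesis, was at 29.7, 29 and 30.9 FPKM under normal conditions and 32.7 and 33.6 FPKM under drought and did not pass (adjusted p = 0.0514). Galactinol synthase opens the raffinose pathway, and OsGolS1 rose from 42.3, 39.9 and 45.1 to 144 and 256 FPKM (log2 fold change 2.18 ± 0.18, adjusted p = 6.1e-06). OsGolS2 rose from 10.0, 9.62 and 10.3 to 61.6 and 102 FPKM (log2 fold change 3.0 ± 0.24, adjusted p = 4.5e-06), and the raffinose synthase gene RafS by 0.70 (adjusted p = 3.7e-04). At these 3 genes drought replicate 2 was the higher. The trehalose genes were mixed: TPS1 fell from 8.96, 8.34 and 8.71 to 5.07 and 4.67 FPKM (log2 fold change -0.83 ± 0.10, adjusted p = 6.3e-05), TPP2 rose by 0.79, and TPP1 was at 10.9, 10.2 and 11.4 FPKM under normal conditions and 15 and 5.0 FPKM under drought, so that it lay above the normal range in replicate 1 and below it in replicate 2.

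Chaperone genes rose in both drought libraries and more in replicate 2. Of 16 heat shock protein genes, 13 rose and none fell (median 2.77). The small heat shock protein gene LOC_Os01g04370 (chr1:1948737-1949587) was at 4.81, 4.75 and 5.26 FPKM under normal conditions and 150.3 and 299 FPKM under drought (log2 fold change 5.47 ± 0.31, adjusted p = 3.1e-07). HSP101, a disaggregase gene, went from 2.11, 2.26 and 1.95 to 8.98 and 20.4 FPKM (log2 fold change 2.74 ± 0.29, adjusted p = 2.9e-05), and HSP26 from 11.7, 12.4 and 6.83 to 68.6 and 116 FPKM (log2 fold change 3.14 ± 0.34, adjusted p = 3.4e-05). The HSP90 gene LOC_Os04g01740 went from 1.13, 2.43 and 1.46 to 19.5 and 42 FPKM (log2 fold change 4.14 ± 0.57, adjusted p = 1.9e-04), whereas the far more abundant LOC_Os09g30412 was at 113, 134 and 124 FPKM under normal conditions and 182 and 133 FPKM under drought and did not pass (adjusted p = 0.126). Among HSP70 genes LOC_Os11g47760, the most abundant, rose from 455, 551 and 453 to 631 and 775 FPKM (log2 fold change 0.52 ± 0.14, adjusted p = 0.00976), and LOC_Os03g60620 was at 58.2, 61.7 and 60.3 FPKM under normal conditions and 58.7 and 57.5 FPKM under drought and did not pass (adjusted p = 0.445). The summed share of the 16 genes was 0.0982, 0.12 and 0.101% of all FPKM in the normal libraries and 0.197 and 0.294% in the drought libraries. Normal replicate 2 was the highest normal library at 12 of the 16, and 13 still rose without it. Drought replicate 2 was the higher of the drought pair at 14 of the 16, and some rises rested largely on it. The change at LOC_Os11g47760 was 0.34 without drought replicate 2 and 0.68 without replicate 1. At the HSP90 gene LOC_Os08g39140 it was 0.27 and 1.56. Of 10 heat shock factor genes, 8 rose and 1 fell, with HsfA2a, a weakly expressed activator gene, changing most, from 0.502, 0.569 and 0.637 to 1.87 and 2.87 FPKM (log2 fold change 2.0 ± 0.24, adjusted p = 7.9e-05). HsfA4d fell from 10.6, 9.53 and 9.68 to 8.3 and 5.3 FPKM (log2 fold change -0.57 ± 0.17, adjusted p = 0.0179), a call that ended without normal replicate 1 and without drought replicate 2 (in the latter, adjusted p = 0.161).

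Genes of enzymes that remove reactive oxygen mostly changed by less. Of 13, 7 rose and 3 fell (median 0.39). Of the list, 2 were called up and 1 down, where 5.33% and 9.03% of all genes were. The called genes are not among those described below. The dehydroascorbate reductase gene DHAR1 rose from 666, 679 and 724 to 1096 and 1332 FPKM (log2 fold change 0.80 ± 0.09, adjusted p = 4.7e-05), the ascorbate peroxidase gene APX1 from 251, 275 and 249 to 333 and 425 FPKM (log2 fold change 0.52 ± 0.10, adjusted p = 0.0012) and the glutathione reductase gene GR2 from 70.0, 63.2 and 62.5 to 97.1 and 91.4 FPKM (log2 fold change 0.54 ± 0.06, adjusted p = 3.3e-05). The catalase genes split: CatB rose by 0.39 (adjusted p = 0.00134) and CatC, the most abundant, fell from 1259, 1122 and 1318 to 1020.1 and 940.2 FPKM (log2 fold change -0.40 ± 0.09, adjusted p = 0.00486). APX2, at 1376, 1335 and 1401 FPKM under normal conditions and 1395 and 1456 FPKM under drought, did not pass (adjusted p = 0.473). Ferritin stores iron in a form that does not react with oxygen, and the near-identical FER1 and FER2 rose from 46.7, 51.6 and 45.1 to 199 and 228 FPKM (log2 fold change 2.15 ± 0.11, adjusted p = 1.3e-07) and from 48.4, 57.1 and 47.4 to 172 and 196 FPKM (log2 fold change 1.86 ± 0.11, adjusted p = 4.9e-07). Fragments of the pair may be exchanged between them. Of the other 7 iron genes tested, none rose. LOC_Os01g72370, also on the iron list, fell from 0.29, 0.0794 and 0.403 to 0.0291 and 0 FPKM (adjusted p = 0.0138), which did not pass without drought replicate 2 (adjusted p = 0.0934).

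Among transcription factors outside the bZIP family, the largest change was at Oshox24 (chr2:26143309-26144731), an HD-Zip I factor, at 0.519, 0.655 and 0.373 FPKM under normal conditions and 73.4 and 81.9 FPKM under drought (log2 fold change 7.19 ± 0.31, adjusted p = 4.2e-08), a 151-fold rise in mean level. Its relative Oshox22 rose from 24.5, 23.4 and 24.1 to 148 and 211 FPKM (log2 fold change 2.87 ± 0.12, adjusted p = 3.9e-08). The most abundant members, Oshox16 and Oshox4, were at 282 and 268 FPKM and at 115 and 123 FPKM under drought, with log2 fold changes of 0.08 and -0.10, and did not pass (adjusted p = 0.383 and 0.386). Oshox12 fell by 1.74 (adjusted p = 0.00522). Of 8 stress zinc finger genes, 6 rose and 1 fell. ZFP182 (chr3:34424180-34425104), whose product raises stress tolerance when overexpressed in rice, went from 1.13, 1.65 and 1.36 to 34.8 and 37 FPKM (log2 fold change 4.64 ± 0.21, adjusted p = 5.6e-08), and OsTZF1 from 21.2, 21 and 20.6 to 76.4 and 107 FPKM (log2 fold change 2.14 ± 0.13, adjusted p = 5.1e-07). DST, a zinc finger factor that favours stomatal opening, fell from 90.2, 86.9 and 96.8 to 54.2 and 59.8 FPKM (log2 fold change -0.75 ± 0.10, adjusted p = 1.7e-04). ZFP245 was at 35.8, 35.6 and 34.7 FPKM under normal conditions and 33.4 and 33.2 FPKM under drought and did not pass (adjusted p = 0.545).

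NAC factors rose at 8 of 12 genes and fell at 1 (median 0.85). The number that fell was 3 without drought replicate 1 and none without drought replicate 2 or normal replicate 3. SNAC1 (chr3:34166099-34167546), which acts in guard cells, was at 90.9, 94.1 and 113 FPKM under normal conditions and 724 and 280 FPKM under drought (log2 fold change 2.29 ± 0.28, adjusted p = 9.1e-05). Both drought libraries were above the normal range, replicate 1 by much more. OsNAC6 behaved alike, at 92, 79.7 and 91.6 FPKM under normal conditions and 201 and 122 FPKM under drought, and its rise (log2 fold change 0.89, adjusted p = 0.00367) did not pass without drought replicate 1 (adjusted p = 0.0522). OsNAC10 and ONAC131 are close copies on chromosomes 11 and 12. OsNAC10 went from 2.57, 2.93 and 3.12 to 17 and 15.5 FPKM (log2 fold change 2.48 ± 0.13, adjusted p = 1.9e-07) and ONAC131 from 2.26, 2.16 and 2.31 to 22 and 22.1 FPKM (log2 fold change 3.28 ± 0.14, adjusted p = 4.3e-08), with no gap between the drought libraries at either. OsNAP, a regulator of leaf senescence, rose from 15.8, 15 and 14.3 to 36.7 and 30.1 FPKM (log2 fold change 1.11 ± 0.16, adjusted p = 2.9e-04). OsNAC3 was at 27.8, 29.4 and 32 FPKM under normal conditions and 56 and 20.4 FPKM under drought, above the normal range in one drought library and below it in the other.

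The DREB factors, which bind the dehydration-responsive element, gave the clearest case of unlike drought libraries. In the joint fit 6 of 7 rose (median 3.28), but 3 rose without drought replicate 1 and 3 without normal replicate 1. OsDREB1B (chr9:20395224-20396205) was at 1.39, 2.72 and 2.53 FPKM under normal conditions and 162 and 1.91 FPKM under drought (log2 fold change 5.14, adjusted p = 0.00406). Replicate 2 therefore lay inside the normal range, and without replicate 1 the change was -0.25 (adjusted p = 0.705). OsDREB1H and OsDREB1A, which lie beside it on chromosome 9 and resemble it in sequence, were at 14.4 and 0.17 FPKM and 27.9 and 0.501 FPKM under drought, against 0.696, 0.262 and 0.76 FPKM and 1.5, 1.3 and 1.38 FPKM. At both, replicate 2 was the lowest of all 5 libraries. OsDREB1E showed the same order, at 0.475, 0.923 and 0.335 FPKM under normal conditions and 3.42 and 0.0723 FPKM under drought, and did not pass in the joint fit (adjusted p = 0.198), but fell without replicate 1 (adjusted p = 0.0434). OsDREB1C rose in both libraries, from 0.143, 0.276 and 0.153 to 8.6 and 5.07 FPKM (log2 fold change 5.04 ± 0.34, adjusted p = 1.2e-06). The DREB2 genes, which act in the response to drought and heat, changed little: OsDREB2A rose from 11.2, 9.59 and 9.32 to 17.2 and 14.5 FPKM (log2 fold change 0.60 ± 0.07, adjusted p = 4.2e-05) and OsDREB2B by 0.18 (adjusted p = 0.0411).

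The gap between the drought libraries was not confined to DREB genes. Of 15631 genes with at least 5 FPKM in the mean of a group, 923 were more than 2-fold above the normal mean in drought replicate 1 and 838 in replicate 2, and 686 were so in both. More than 2-fold below it were 1014 in replicate 1, 1028 in replicate 2 and 843 in both. Thus 237 genes were raised past 2-fold in replicate 1 alone and 152 in replicate 2 alone, and 9 lay past 2-fold on opposite sides. Of 1325 genes called up, 896 stayed called both without replicate 1 and without replicate 2, and of 2245 called down 1454 did.

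Genes with the largest excess in drought replicate 1, among those averaging 20 FPKM or more in the pair, were OsDREB1B, OsbHLH148 and several genes of signalling and protein turnover. LOC_Os09g28440, which carries an AP2 domain, was at 0.253, 0.351 and 0.264 FPKM under normal conditions and 45 and 0.417 FPKM under drought. LOC_Os02g35329, annotated as a RING-H2 finger protein, was at 1.72, 0.929 and 3.34 FPKM under normal conditions and 69 and 3.46 FPKM under drought, and LOC_Os02g33680, with a U-box domain, at 6.05, 7.09 and 7.23 FPKM under normal conditions and 121 and 8.92 FPKM under drought. At these genes replicate 2 was in or just above the normal range. LOC_Os01g64470, with a harpin-induced domain, was at 7.5, 8.0 and 7.54 FPKM and then at 107 and 4.3 FPKM, so that replicate 2 lay below all normal libraries. The JAZ genes had the same order. Jasmonate is a wound and stress hormone whose response genes are held down by JAZ repressors, themselves among its fastest targets. Replicate 1 was the higher drought library at all 11 JAZ genes tested, with a median log2 ratio of 0.93, where over all genes tested replicate 1 was the higher at 52.3% with a median of 0.01. Of the 11, 8 rose in the joint fit, 4 without replicate 1 and 9 without replicate 2. OsJAZ6 was at 56.5, 50.8 and 52.2 FPKM under normal conditions and 175 and 78.4 FPKM under drought, and OsJAZ9 at 0.804, 0.617 and 0.848 FPKM under normal conditions and 5.79 and 1.29 FPKM under drought. OsbHLH148 (chr3:30406830-30409447), a factor that interacts with JAZ proteins, was at 21.8, 19.9 and 21.8 FPKM under normal conditions and 359 and 32 FPKM under drought (log2 fold change 3.14 ± 0.65, adjusted p = 0.0025). OsbHLH006 was at 4.06, 1.93 and 1.88 FPKM under normal conditions and 121 and 15.9 FPKM under drought (log2 fold change 4.9 ± 0.73, adjusted p = 3.1e-04). Both rose also without replicate 1 (adjusted p = 0.00405 and 6.8e-05). OsMYC2, at 40.1, 37.3 and 38 FPKM under normal conditions and 54.1 and 38 FPKM under drought, did not pass (adjusted p = 0.204), and the receptor gene COI1b rose by 0.28, COI1a and COI2 not passing.

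WRKY factors, which act mainly in defence, were not alike in the drought libraries, and replicate 1 was the higher at all 15. In the joint fit 6 of the 15 rose and 4 fell, but 1 rose without drought replicate 1 and 3 rose without normal replicate 2 or without normal replicate 3. WRKY71 was at 11.3, 10.7 and 13.8 FPKM under normal conditions and 123 and 25.4 FPKM under drought and was the one that still rose (adjusted p = 0.00675). WRKY53 (chr5:16150266-16152747) was at 101, 89.8 and 112 FPKM under normal conditions and 322 and 107 FPKM under drought, with replicate 2 inside the normal range, and WRKY42 was at 0.321, 0.587 and 0.412 FPKM under normal conditions and 5.74 and 0.907 FPKM under drought. WRKY45, WRKY62 and WRKY76 fell whichever library was left out. WRKY45 (chr5:14991568-14993800), a main regulator of salicylic acid responses in rice, went from 147, 113 and 120 to 59.3 and 41.1 FPKM (log2 fold change -1.38 ± 0.23, adjusted p = 6.2e-04). WRKY62 went from 20.6, 13.4 and 17.3 to 4.14 and 3.78 FPKM (log2 fold change -2.15 ± 0.31, adjusted p = 2.7e-04) and WRKY76 from 17.3, 14.1 and 15.2 to 6.76 and 4.33 FPKM (log2 fold change -1.53 ± 0.29, adjusted p = 0.00149).

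**Figure D2:**
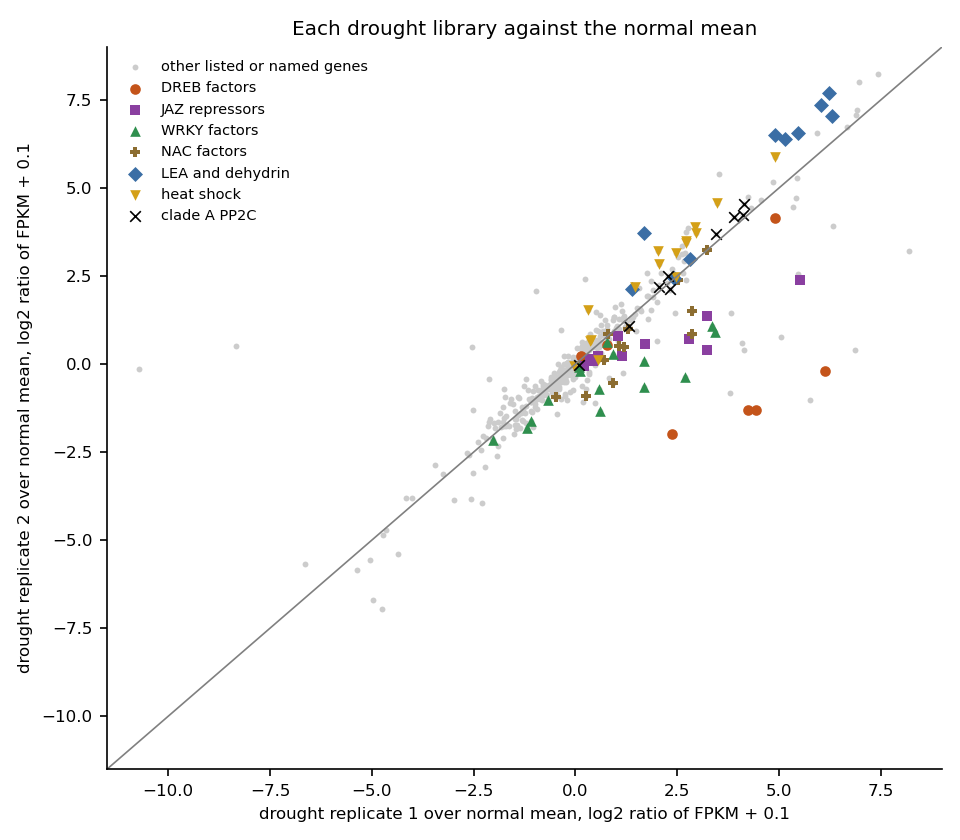
Each listed or named gene by its level in drought replicate 1 (x axis) and in drought replicate 2 (y axis), both as the log2 ratio of FPKM + 0.1 over the mean of the normal libraries; the line marks equal levels, and symbols mark 7 lists. JAZ and WRKY genes and 6 of 7 DREB genes lie below the line (replicate 1 higher), LEA genes and most heat shock genes above it (replicate 2 higher), and PP2C genes near it.

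Most other lists of defence moved little or downward. Genes of diterpenoid phytoalexins, antimicrobial compounds of rice leaves, fell at 8 of 11 (5 without drought replicate 1) and rose at none (median -1.43). MAS, for momilactone A synthase, fell from 4.82, 3.35 and 3.26 to 0.647 and 0.747 FPKM (log2 fold change -2.51 ± 0.30, adjusted p = 7.7e-05) and OsCPS2, a diterpene cyclase gene, from 12.2, 14.4 and 11.9 to 5.93 and 5.98 FPKM (log2 fold change -1.13 ± 0.13, adjusted p = 6.9e-05). Most other members were under 2 FPKM in all libraries. Among 5 pathogenesis-related genes, JIOsPR10 rose from 32.5, 27.2 and 33.7 to 70.7 and 77.2 FPKM (log2 fold change 1.2 ± 0.11, adjusted p = 7.9e-06), and PBZ1, the most abundant, was at 339.9, 295 and 309.9 FPKM under normal conditions and 277 and 320.1 FPKM under drought and did not pass (adjusted p = 0.531). Bowman-Birk protease inhibitor genes, a tandem cluster on chromosome 1, rose at 4 of 6, among them LOC_Os01g03340 from 0.313, 0.411 and 0.623 to 3.53 and 7.34 FPKM (log2 fold change 3.57 ± 0.35, adjusted p = 1.9e-05). Drought replicate 2 was the higher at all 6. In phenylpropanoid synthesis 4 of 15 rose (2 without normal replicate 1 or normal replicate 3) and 3 fell, where 21.6% of all genes rose and 22.8% fell. The phenylalanine ammonia-lyase gene LOC_Os02g41630 rose from 828, 867 and 899 to 1235 and 1703 FPKM (log2 fold change 0.68 ± 0.14, adjusted p = 0.00208). Chalcone synthase and chalcone isomerase genes, at 401 and 443 and 505 and 569.9 FPKM under drought, did not pass (adjusted p = 0.758 and 0.654).

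Genes of jasmonate synthesis moved in both directions. Of 13 genes, 3 rose and 5 fell (8 fell without drought replicate 1). The lipoxygenase gene LOC_Os02g10120, the most abundant of them, rose from 95.2, 92.9 and 100 to 329 and 364 FPKM (log2 fold change 1.78 ± 0.08, adjusted p = 3.9e-08), and OsOPR1, for an oxophytodienoate reductase, rose from 14.6, 13.5 and 15.2 to 57.9 and 22.5 FPKM (log2 fold change 1.43 ± 0.29, adjusted p = 0.00211), with replicate 1 the higher. The lipoxygenase gene LOC_Os08g39850 fell from 3.65, 2.65 and 2.75 to 0.775 and 0.81 FPKM (log2 fold change -2.12 ± 0.25, adjusted p = 6.2e-05). AOS1, for allene oxide synthase, was at 17.2, 20.2 and 17.4 FPKM under normal conditions and 21.8 and 11.1 FPKM under drought and OsOPR7 at 43.5, 41.8 and 40.5 FPKM under normal conditions and 41.6 and 36.3 FPKM under drought, and neither passed (adjusted p = 0.502 and 0.09). AOC, the only gene listed for allene oxide cyclase, fell by 0.24 (adjusted p = 0.0125).

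Photosynthesis genes fell unevenly, with every Calvin cycle gene tested lowered and photosystem I antenna genes mixed. All 10 Calvin cycle genes fell (median -0.66), where 22.8% of all genes did. GAPA (chr4:22937056-22939073), a subunit of the chloroplast glyceraldehyde-3-phosphate dehydrogenase, fell furthest outside the Rubisco genes, from 357, 354 and 354 to 149.7 and 134 FPKM (log2 fold change -1.38 ± 0.09, adjusted p = 9.8e-07). The Rubisco activase gene RCA went from 415, 385 and 398 to 273 and 288 FPKM (log2 fold change -0.60 ± 0.08, adjusted p = 1.0e-04). PRK, for phosphoribulokinase, fell least, from 336, 316 and 326 to 241 and 243 FPKM (log2 fold change -0.43 ± 0.08, adjusted p = 0.00105). The small subunit genes of Rubisco fell by unequal amounts. LOC_Os12g17600 went from 2880.2, 2860.4 and 2995 to 1042 and 988 FPKM (log2 fold change -1.55 ± 0.09, adjusted p = 2.5e-07), the furthest of the list. LOC_Os12g19470 went from 362, 355 and 373 to 149.7 and 142 FPKM (log2 fold change -1.29 ± 0.07, adjusted p = 1.5e-07) and LOC_Os12g19381 from 2882, 2769 and 3181 to 2095 and 2068 FPKM (log2 fold change -0.51 ± 0.09, adjusted p = 8.4e-04), with the caution that these copies are near-identical. Together the list fell from 1.07 ± 0.0327% (SD, n = 3) to 0.584 ± 0.00842% (SD, n = 2) of all FPKM. In bulk shoots fewer cells of a type and less RNA per cell cannot be told apart.

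The light-harvesting antenna differed by photosystem. Of 8 Lhcb genes, which serve photosystem II, 7 fell and 1 did not pass. Of 5 Lhca genes, which serve photosystem I, 2 rose, 1 fell and 2 did not pass. The Lhcb gene that did not pass, LOC_Os09g17740, was the most abundant of the antenna list. It was at 4975, 4587 and 4843 FPKM under normal conditions and 4490.1 and 4819 FPKM under drought (log2 fold change -0.07, adjusted p = 0.504). The rise of Lhca2, from 932, 823 and 869 to 1019 and 1009 FPKM (adjusted p = 0.0477), did not pass without either drought replicate or without normal replicate 2 or 3. Lhcb6 (chr4:22835896-22837594), a minor antenna protein, went from 794, 737 and 831 to 428 and 394 FPKM (log2 fold change -1.0 ± 0.08, adjusted p = 3.8e-06), and Lhcb5 from 1339, 1216 and 1281 to 762 and 755 FPKM (log2 fold change -0.84 ± 0.07, adjusted p = 7.2e-06). Lhca3 rose from 1648, 1521 and 1621 to 2212 and 2291 FPKM (log2 fold change 0.48 ± 0.07, adjusted p = 2.8e-04). Lhca1 was at 3876, 3402 and 3868 FPKM under normal conditions and 3539 and 3843 FPKM under drought and did not pass (adjusted p = 0.655). The difference between the sets is a description and was not tested. Among 9 photosystem subunits 2 rose (1 without normal replicate 2) and 3 fell, where 21.6% of all genes rose and 22.8% fell. The rise of PsaH was 0.24 in the joint fit and 0.18 without drought replicate 2. The copies of PsbS, the protein that releases excess light energy as heat, moved apart: PsbS1 fell from 1467, 1249 and 1445 to 1049 and 881 FPKM (log2 fold change -0.59 ± 0.11, adjusted p = 0.0018), and PsbS2 rose from 520.4, 466 and 471 to 709 and 784 FPKM (log2 fold change 0.56 ± 0.08, adjusted p = 1.8e-04). PsbP, of the oxygen-evolving complex, fell by 0.52 (adjusted p = 2.2e-04), whereas PsbO was at 1528, 1347 and 1384 FPKM under normal conditions and 1499 and 1588 FPKM under drought and did not pass (adjusted p = 0.596).

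Chlorophyll genes split by direction of the pathway. Of 11 synthesis genes 8 fell and 1 rose (median -0.42), and all 6 breakdown genes rose (median 1.33). Drought replicate 2 was the lower of the pair at 9 of the 11 synthesis genes. Without it the changes at CHLD and PORA were -0.23 and -0.40, against -0.34 and -0.70 in the joint fit. HEMA1, for the first committed enzyme, went from 70.3, 68.3 and 70.7 to 49.1 and 36.3 FPKM (log2 fold change -0.71 ± 0.11, adjusted p = 5.5e-04). CHLH, a subunit of magnesium chelatase, went from 59.8, 56.4 and 58.1 to 38.9 and 33.7 FPKM (log2 fold change -0.67 ± 0.07, adjusted p = 2.9e-05), and its regulator GUN4 from 17.6, 18.5 and 20.2 to 11.6 and 10.2 FPKM (log2 fold change -0.83 ± 0.09, adjusted p = 3.7e-05). The exception was CAO1, whose product makes chlorophyll b and which rose from 32.8, 33.9 and 31.1 to 37.1 and 42.5 FPKM (log2 fold change 0.32 ± 0.08, adjusted p = 0.00664), though not without drought replicate 2 (adjusted p = 0.0871). In breakdown, NYC1, a chlorophyll b reductase, rose from 437, 380.2 and 408 to 842 and 717 FPKM (log2 fold change 0.91 ± 0.08, adjusted p = 1.1e-05). PAO (chr3:2576496-2580452), which opens the chlorophyll ring, rose from 32.6, 33 and 32.1 to 84.5 and 78.8 FPKM (log2 fold change 1.32 ± 0.07, adjusted p = 2.5e-07). RCCR1, which acts on the product of PAO, rose from 47.9, 48.9 and 45.4 to 141 and 139 FPKM (log2 fold change 1.35 ± 0.12, adjusted p = 6.7e-06) and NYC3 from 64.1, 61.9 and 60.9 to 161 and 149 FPKM (log2 fold change 1.35 ± 0.10, adjusted p = 2.0e-06). No normal library overlapped a drought library at any of the 6, which was also so at 62.4% of all genes tested.

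**Figure D3:**
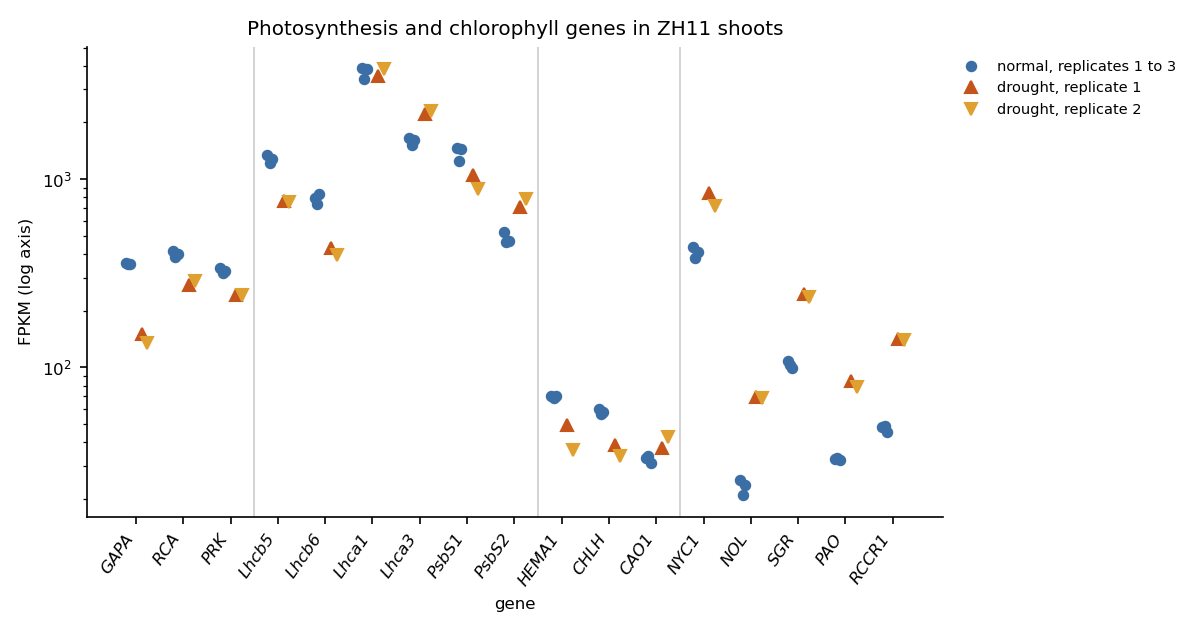
FPKM of each ZH11 library (log axis) for genes of the Calvin cycle, light harvesting and PsbS, chlorophyll synthesis and chlorophyll breakdown, from left to right between grey lines; symbols as in the plot of ABA genes. GAPA, Lhcb5, Lhcb6, HEMA1 and CHLH are lower under drought in both libraries, Lhca3, PsbS2 and the 5 breakdown genes are higher, and Lhca1 overlaps.

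Nitrogen assimilation fell at its first steps. Nitrate is reduced by nitrate reductase and nitrite reductase, and the ammonium formed is built into glutamine and glutamate by GS and GOGAT. NR3 (chr2:32513739-32517155), a nitrate reductase gene, fell from 18.3, 17 and 25.2 to 3.31 and 1.33 FPKM (log2 fold change -3.18 ± 0.30, adjusted p = 1.2e-05), NIA1 from 41.7, 37.3 and 46.2 to 23.4 and 20.4 FPKM (log2 fold change -1.0 ± 0.15, adjusted p = 2.8e-04) and the nitrite reductase gene NIR from 218, 201 and 261 to 113 and 102 FPKM (log2 fold change -1.14 ± 0.10, adjusted p = 1.0e-05). Glutamine synthetase fell in its cytosolic and its plastid form, GS1;1 from 412, 387 and 349 to 184 and 195 FPKM (log2 fold change -1.0 ± 0.11, adjusted p = 3.7e-05) and GS2 from 297, 272 and 310.5 to 199 and 171 FPKM (log2 fold change -0.67 ± 0.08, adjusted p = 9.2e-05). The glutamate synthase genes differed by the reductant they use: the NADH-dependent NADHGOGAT1 and NADHGOGAT2 rose, the latter from 3.25, 3.29 and 4.06 to 17 and 17.8 FPKM (log2 fold change 2.25 ± 0.08, adjusted p = 1.8e-08), and FdGOGAT, the leaf enzyme fed by ferredoxin, fell from 197, 190 and 204 to 169 and 137 FPKM (log2 fold change -0.29 ± 0.09, adjusted p = 0.025). The fall of FdGOGAT did not pass without drought replicate 2 (adjusted p = 0.232). The nitrate transporter gene NRT1.1B rose from 11.5, 13.1 and 9.17 to 26.1 and 23.3 FPKM (log2 fold change 1.07 ± 0.16, adjusted p = 2.9e-04). Over the list 3 of 13 rose and 7 fell.

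Sugar genes showed some of the widest changes outside the protective genes, in both directions: 7 of 18 rose and 6 fell. Sucrose is split in the cell wall by CIN invertases, in the vacuole by INV invertases and in the cytosol by sucrose synthases. INV3 (chr2:343057-347196) rose from 2.49, 2.96 and 2.08 to 48.9 and 69.8 FPKM (log2 fold change 4.5 ± 0.17, adjusted p = 2.0e-08), a 23.6-fold rise in mean level. CIN2 (chr4:20422171-20427062) fell from 1.47, 3.09 and 1.71 to 0.0224 and 0.0563 FPKM (log2 fold change -5.92 ± 0.57, adjusted p = 1.6e-05), and SUS1 from 181, 247 and 170 to 59.3 and 59.2 FPKM (log2 fold change -1.76 ± 0.18, adjusted p = 2.4e-05). The export and transport genes that passed all rose. SWEET13, a sucrose exporter gene, went from 34, 31.3 and 31.2 to 97.8 and 91.6 FPKM (log2 fold change 1.53 ± 0.06, adjusted p = 2.0e-08), SWEET15 from 7.68, 10.3 and 4.8 to 39.8 and 50.1 FPKM (log2 fold change 2.54 ± 0.22, adjusted p = 6.1e-06) and SUT1 from 33.7, 28.3 and 29 to 60.2 and 59 FPKM (log2 fold change 0.97 ± 0.08, adjusted p = 3.8e-06). SUT2, the most abundant SUT gene under normal conditions, was at 49.5, 52.4 and 47.5 FPKM under normal conditions and 47.1 and 43.8 FPKM under drought (adjusted p = 0.833). LOC_Os01g69030, also on the sugar list, rose by 0.75 (adjusted p = 1.8e-05). In starch synthesis GBSSII fell from 73.4, 69.6 and 69.4 to 36.5 and 29.1 FPKM (log2 fold change -1.08 ± 0.13, adjusted p = 8.0e-05), AGPS2 fell by 0.39 and AGPL1 did not pass (adjusted p = 0.114).

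Genes of water movement were mixed. Of 9 plasma membrane aquaporin genes 3 rose and 3 fell (median -0.20). PIP2;7, the most abundant, fell from 3005, 2495 and 3122 to 2291 and 2153 FPKM (log2 fold change -0.42 ± 0.09, adjusted p = 0.00468). PIP1;3 fell from 86.6, 71.2 and 83.2 to 44.7 and 44.1 FPKM (log2 fold change -0.89 ± 0.09, adjusted p = 2.0e-05) and PIP1;1 rose from 414, 471 and 380 to 585 and 671 FPKM (log2 fold change 0.55 ± 0.09, adjusted p = 5.5e-04). The rises of PIP1;2 and PIP2;2 did not pass without drought replicate 2, which left 1 rise in the list (adjusted p = 0.458 and 0.247). In the tonoplast, TIP1;2 rose from 382, 327 and 352 to 787 and 1003 FPKM (log2 fold change 1.3 ± 0.09, adjusted p = 1.9e-06), 3 of the 6 genes fell, and TIP1;1, the most abundant under normal conditions, was at 938, 1105 and 908 FPKM under normal conditions and 866 and 1155 FPKM under drought (adjusted p = 0.758). Among ion carriers the sodium transporter gene OsHKT1;1 rose from 1.88, 1.8 and 1.73 to 9.38 and 8.0 FPKM (log2 fold change 2.27 ± 0.15, adjusted p = 8.7e-07), its relative OsHKT1;5 fell by 1.96 (adjusted p = 0.00101) from a level under 1 FPKM, and the vacuolar antiporter gene OsNHX1 rose from 9.51, 12.5 and 10.0 to 21.3 and 21.7 FPKM (log2 fold change 1.03 ± 0.14, adjusted p = 1.5e-04). The potassium transporter gene OsHAK1 fell from 21.6, 17.7 and 19 to 6.71 and 4.84 FPKM (log2 fold change -1.78 ± 0.18, adjusted p = 1.9e-05). The guard cell anion channel gene SLAC1 was at 21.4, 20.9 and 18.3 FPKM under normal conditions and 15.3 and 15.9 FPKM under drought and did not pass (adjusted p = 0.0639).

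Cuticular wax limits water loss once stomata are shut, and its genes fell at 7 of 9 (median -0.90). The wax regulators OsWR1 and OsWR2 went from 9.8, 11.8 and 8.38 to 3.53 and 3.94 FPKM (log2 fold change -1.46 ± 0.24, adjusted p = 5.9e-04) and from 24.1, 30.9 and 21.1 to 7.26 and 10.7 FPKM (log2 fold change -1.53 ± 0.29, adjusted p = 0.00159). OsGL1-6 fell from 50.5, 53.5 and 52.6 to 18.1 and 23.6 FPKM (log2 fold change -1.38 ± 0.21, adjusted p = 3.3e-04), and WSL1, which encodes a ketoacyl-CoA synthase of wax synthesis, from 50.4, 63.8 and 46.5 to 26 and 31.5 FPKM (log2 fold change -0.91 ± 0.19, adjusted p = 0.00238). OsGL1-2 was at 24.4, 26.6 and 25 FPKM under normal conditions and 25.8 and 34.8 FPKM under drought and did not pass (adjusted p = 0.37), and LOC_Os10g33250 went up from 0.146, 0.152 and 0.0667 to 1.32 and 1.59 FPKM (log2 fold change 3.63 ± 0.20, adjusted p = 2.2e-07). Normal replicate 2 was the highest normal library at 7 of the 9, and the same number fell without it.

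**Figure D4:**
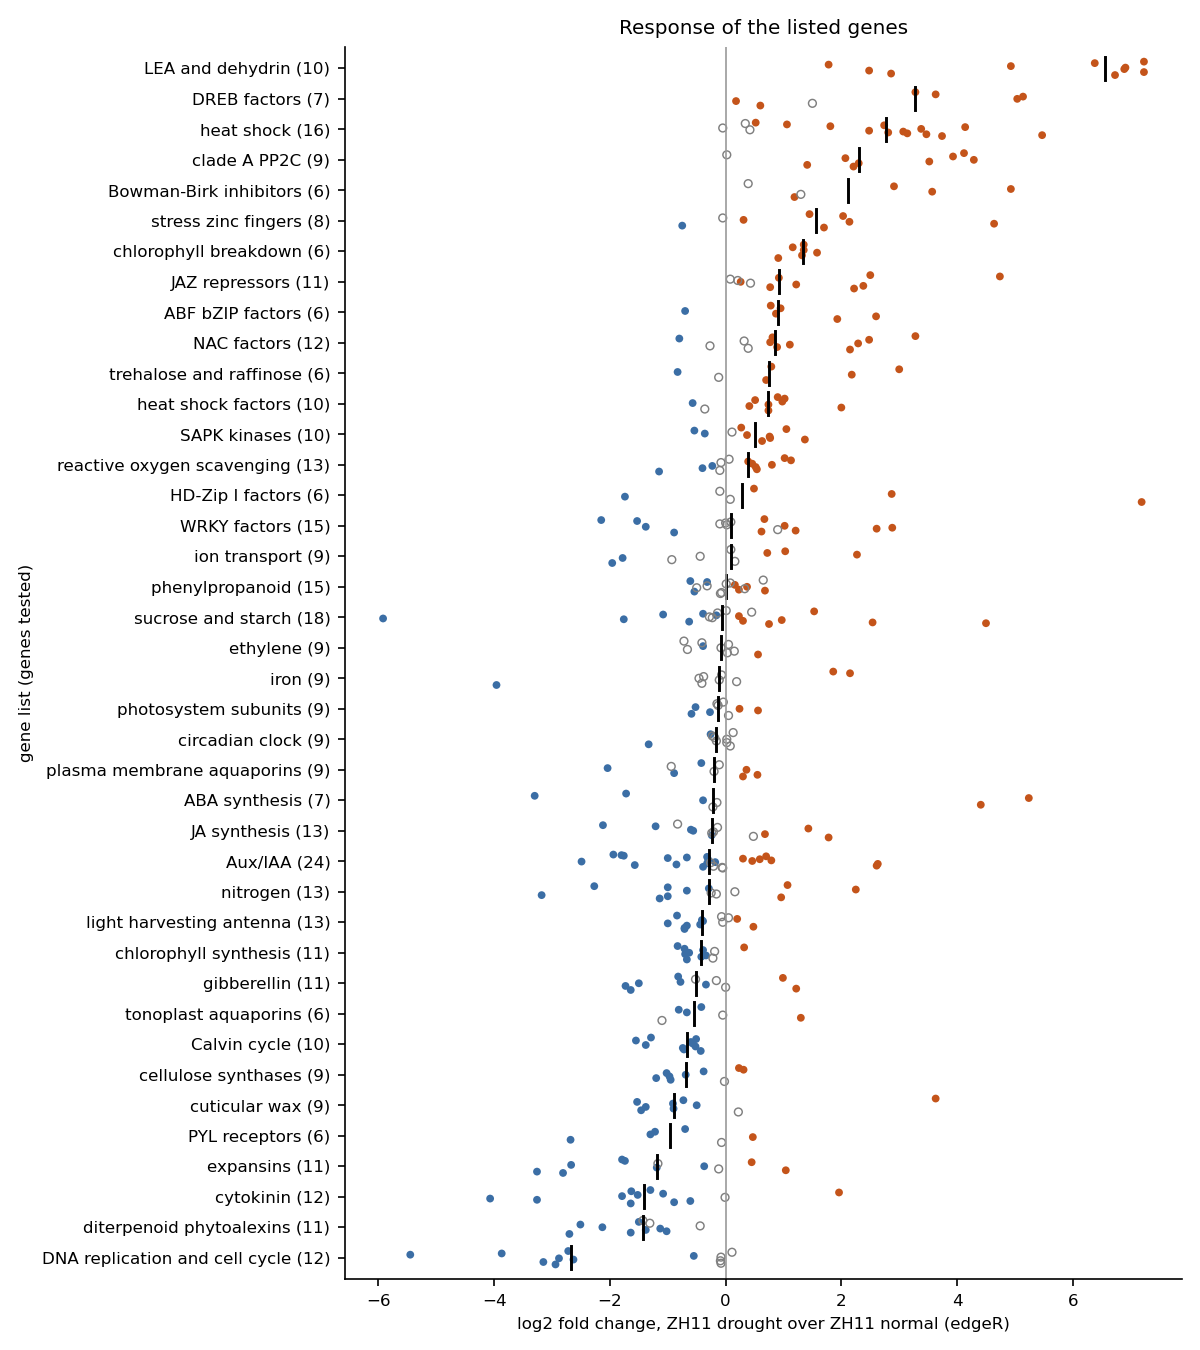
Log2 fold change of drought over normal for every tested gene of the larger lists, ordered by the median of the list, which a black bar marks; filled points passed an adjusted p of 0.05 (orange rose, blue fell), open points did not, and the number of genes tested stands beside the name. LEA and dehydrin genes have the highest median (6.56) and the list of replication and cell cycle genes the lowest (-2.68).

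Growth genes fell in wall, division and hormone lists. Expansins loosen walls of growing cells, and 7 of 11 fell while 2 rose (none without normal replicate 1, normal replicate 3 or drought replicate 2, and 1 without drought replicate 1; median -1.19). OsEXPA2 went from 69.3, 84.9 and 42.5 to 11.4 and 7.62 FPKM (log2 fold change -2.81 ± 0.33, adjusted p = 6.3e-05), OsEXPB11 from 12.7, 15.3 and 9.29 to 1.05 and 1.63 FPKM (log2 fold change -3.26 ± 0.27, adjusted p = 5.8e-06) and OsEXPB4 from 57.6, 72.9 and 56.6 to 18 and 19.8 FPKM (log2 fold change -1.79 ± 0.15, adjusted p = 6.6e-06). OsEXPA5 rose from 10.5, 15.3 and 7.56 to 15.8 and 31.3 FPKM, which did not pass without drought replicate 2 (adjusted p = 0.359). Within the cellulose synthase (CESA) genes the direction differed by wall type, which was not tested. BC1, which is on the same list but is not a CESA gene, fell. CESA1, CESA3, CESA5, CESA6 and CESA8, which act mainly in primary walls, all fell, with changes from -1.2 to -0.38. The secondary wall genes CESA7 and CESA9 rose by 0.23 and 0.31, and CESA4 was at 43.4, 52.2 and 39.9 FPKM under normal conditions and 42.8 and 45.8 FPKM under drought and did not pass (adjusted p = 0.876). The fall of CESA3 did not pass without drought replicate 1 (adjusted p = 0.0689). The rise of CESA7 did not pass without normal replicate 1, normal replicate 3 or either drought replicate, and without drought replicate 2 neither rise passed (adjusted p = 0.186 and 0.0657).

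Of 12 genes for DNA replication and cell division 8 fell and none rose (median -2.68), most of them from levels near or below 1 FPKM. OsMCM3, OsMCM5, OsMCM6 and OsMCM7, for parts of the replicative helicase, fell by 2.88, 3.15, 2.63 and 2.72, with adjusted p between 0.00185 and 0.00442. OsMCM7, for instance, was at 0.629, 1.6 and 0.599 FPKM under normal conditions and 0.177 and 0.108 FPKM under drought. The cyclin gene CYCB2;2 was at 0.341, 1.0 and 0.392 FPKM under normal conditions and 0.0118 and 0.0143 FPKM under drought (log2 fold change -5.45 ± 1.0, adjusted p = 0.00123). OsMCM2, at 1.33, 2.02 and 1.33 FPKM under normal conditions and 1.99 and 1.32 FPKM under drought, was the helicase gene that did not pass (adjusted p = 0.695), and CDKB1, at 10.0, 9.38 and 9.97 FPKM under normal conditions and 9.61 and 8.88 FPKM under drought, did not pass either (adjusted p = 0.472). Normal replicate 2 was the highest normal library at 11 of the 12, where it was so at 9980 of the 24850 genes tested, and all 8 still fell without it. How much dividing tissue each sample held was not tested.

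Cytokinin promotes division and keeps leaves green, and 10 of 12 cytokinin genes fell (median -1.41). The type A response regulators, which cytokinin induces within minutes, fell steeply. RR2 (chr2:21128620-21131485) went from 11.9, 11.9 and 11.4 to 0.636 and 0.745 FPKM (log2 fold change -4.07 ± 0.12, adjusted p = 3.4e-09) and RR4 (chr1:41948952-41952388) from 18, 17.2 and 19.5 to 1.82 and 2.0 FPKM (log2 fold change -3.26 ± 0.12, adjusted p = 1.4e-08). RR1 and RR6 fell by 1.79 and 1.52, and RR3, at 0.993, 1.07 and 1.44 FPKM under normal conditions and 1.49 and 0.946 FPKM under drought, did not pass (adjusted p = 0.921). LOC_Os11g04720, also on the list, and RR10 fell by 1.63 and 1.3. Cytokinin oxidases break the hormone down, and 4 of the 5 tested also fell, among them CKX5 from 21.4, 21.8 and 20.8 to 12.3 and 12.3 FPKM (log2 fold change -0.89 ± 0.09, adjusted p = 2.9e-05). The exception was CKX11 (chr8:22616784-22619896), which rose from 14, 16.7 and 15.4 to 57.9 and 66.7 FPKM (log2 fold change 1.96 ± 0.10, adjusted p = 1.6e-07) and under drought was the most abundant of them.

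Auxin and gibberellin genes moved in both directions. Of 24 Aux/IAA repressor genes, 7 rose and 13 fell (median -0.28). IAA6 rose from 2.93, 3.07 and 3.25 to 20.7 and 16.5 FPKM (log2 fold change 2.61 ± 0.11, adjusted p = 2.9e-08). IAA21 fell from 283, 281 and 248 to 141 and 142 FPKM (log2 fold change -1.0 ± 0.08, adjusted p = 4.5e-06), and the neighbours IAA30 and IAA31 on chromosome 12 fell by 1.8 and 1.94. GH3-2 and GH3-8, whose products join auxin to amino acids, rose from 4.74, 5.17 and 4.56 to 10.9 and 11.6 FPKM (log2 fold change 1.22 ± 0.11, adjusted p = 1.2e-05) and from 3.78, 2.2 and 3.44 to 11 and 7.8 FPKM (log2 fold change 1.51 ± 0.31, adjusted p = 0.00259). In gibberellin synthesis CPS1, for the first committed step, fell by 1.73 (adjusted p = 3.6e-05) and GA20ox1 from 13.3, 14.2 and 15.8 to 5.32 and 5.25 FPKM (log2 fold change -1.5 ± 0.11, adjusted p = 2.3e-06), while SD1, the GA20 oxidase gene of the semi-dwarf varieties, was at 21.5, 22.7 and 26.4 FPKM under normal conditions and 25.7 and 25.2 FPKM under drought and did not pass. GA2ox3, for an enzyme that inactivates gibberellin, rose from 5.37, 5.6 and 6.97 to 17 and 11.5 FPKM (log2 fold change 1.22 ± 0.20, adjusted p = 6.7e-04), and GA2ox6 fell from 47.7, 40.1 and 47.6 to 25.8 and 29.1 FPKM (log2 fold change -0.78 ± 0.12, adjusted p = 4.5e-04). The receptor gene GID1 rose from 72.7, 75.3 and 73.8 to 156 and 148 FPKM (log2 fold change 0.99 ± 0.05, adjusted p = 2.3e-07), and SLR1, for the DELLA repressor it targets, fell by 0.34 (adjusted p = 0.00664). BZR1, a brassinosteroid factor, fell from 16.5, 18.2 and 16.7 to 10.2 and 9.96 FPKM (log2 fold change -0.82 ± 0.11, adjusted p = 1.6e-04).

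**Figure D5:**
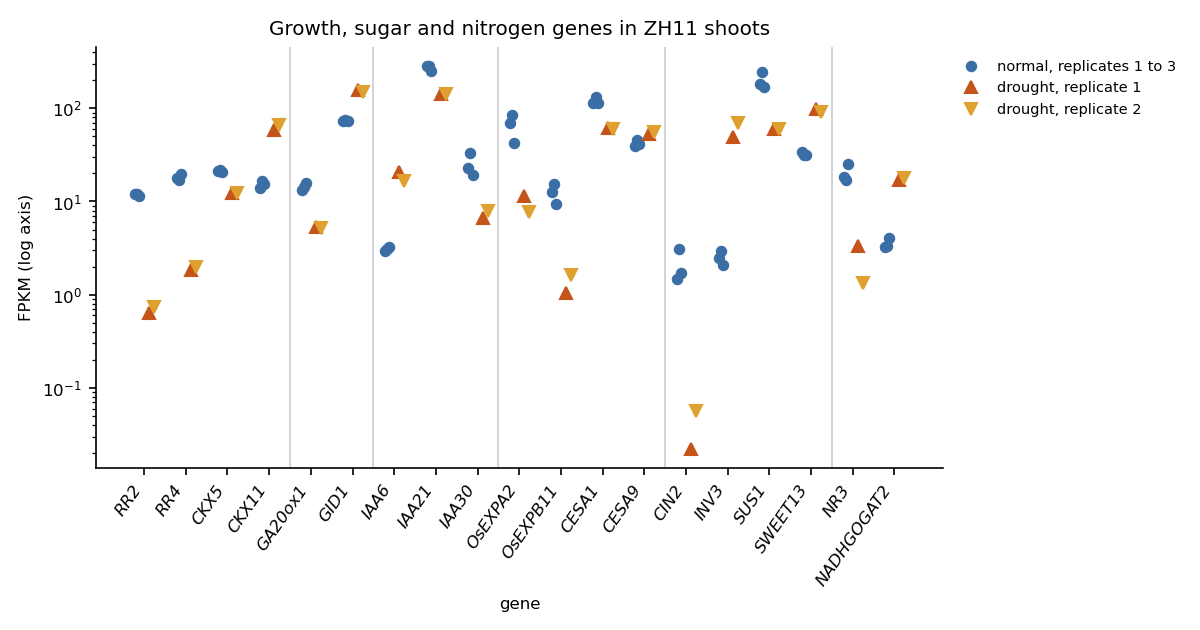
FPKM of each ZH11 library (log axis) for genes of cytokinin, gibberellin, auxin, cell walls, sugars and nitrogen, from left to right between grey lines; symbols as in the plot of ABA genes. RR2, RR4, OsEXPB11, CIN2 and NR3 are more than 5-fold lower in both drought libraries than in any normal one, and CKX11, IAA6, INV3, SWEET13 and NADHGOGAT2 are higher in both.

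In some lists few genes passed. Of 9 ethylene genes 1 rose and 1 fell (2 fell without normal replicate 3 or drought replicate 1). The oxidase gene ACO3 rose from 33.8, 31.2 and 34.6 to 51.9 and 51.6 FPKM (log2 fold change 0.56 ± 0.07, adjusted p = 1.1e-04) and EBF1 fell by 0.39 (adjusted p = 2.8e-04), and the receptor gene ERS1 was at 26.1, 28 and 25.1 FPKM under normal conditions and 25.4 and 27.5 FPKM under drought. Of 9 clock genes none rose and 2 fell. LUX, of the evening complex, was the only one to change by 1 or more, from 195, 176 and 201 to 77 and 81.7 FPKM (log2 fold change -1.33 ± 0.06, adjusted p = 9.6e-08), and PRR95 fell by 0.26 (adjusted p = 0.01). PRR1 was at 51.8, 51.7 and 54.2 FPKM under normal conditions and 53.7 and 52.9 FPKM under drought (adjusted p = 0.779) and GI at 268, 267 and 261 FPKM under normal conditions and 303 and 254 FPKM under drought (adjusted p = 0.418). Of 5 genes often used as references 2 rose (1 without normal replicate 1 or either drought replicate) and 1 fell. LOC_Os01g22490 was at 369, 350.2 and 369 FPKM under normal conditions and 399 and 383 FPKM under drought and eEF1a at 219, 221 and 227 FPKM under normal conditions and 214 and 255 FPKM under drought, neither passing (adjusted p = 0.496 and 0.533). OsActin1 fell from 85.9, 112 and 87 to 68.1 and 67.5 FPKM (log2 fold change -0.51 ± 0.11, adjusted p = 0.00437), and GAPDH rose from 630.4, 633 and 625 to 775 and 878 FPKM (log2 fold change 0.39 ± 0.08, adjusted p = 0.0018).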

How the data were processed

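For each transcript the authors deposited an estimated count of fragments and an FPKM value, made on the BMKCloud platform. Per the labels the tools were TopHat2, Picard, SAMtools 0.1.18 and GATK, and the sources used here name no genome build. The deposited expected counts appear to carry 1 factor per library, since 89.7 to 90.4% of gene sums in ZH11 were whole multiples (to within 0.01 fragments) of a step of 0.884 to 1.19. With the factor divided out, totals were 28610375 to 37795949. Of the FPKM, 4.55 to 7.03% lay in transcripts under 200 bases.

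Both values were added up per gene over its transcripts. Sums of counts were rounded, filtered by filterByExpr and scaled by TMM. All 10 libraries entered 1 quasi-likelihood fit of edgeR 4.0.16 (R 4.3.3), with a mean for each group. FPKM values, as deposited by the authors, gave levels and shares of the pool. The fit was tested on simulated data of 24850 genes for this comparison. Genes were counted at an adjusted p under 0.05 in the simulated direction, with no limit on the change. Of genes raised 2-fold 37 of 50 were found, and of those raised 4-fold 50 of 50. Of genes lowered to 0.5-fold 38 of 50 were found, and of those lowered to 0.25-fold 45 of 50. Of 24650 unchanged genes 14 passed in either direction. The simulated spread was that of the joint fit and equal in all groups. In the data the ZH11 drought libraries lay further apart than other pairs, so the simulation cannot show the error rate under that spread. Calls with the limit on the change were not counted in the simulation.

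The genes and lists were chosen with earlier results of these data known. The rule named, for each list, up to 4 members per direction by adjusted p and the most expressed one that did not pass; the 8 largest changes and the 8 largest changes in FPKM each way; the 8 genes most unlike between the drought libraries each way; and genes the paper names. Further list members were named after their values were seen. Loci came from general knowledge of rice genes. In a check against RefSeq genes, 288 names were found near the same position, 14 elsewhere and 140 not at all. Another 50 were only working labels for members of gene families and were not looked up. A further 7 loci were not in the files. Names found elsewhere were replaced by loci. Alternatives were DESeq2 1.42.0, limma 3.58.1 on log2 of FPKM plus 0.1 or plus 1, RLE factors, no filter, a filter of 50 counts, the 5 ZH11 libraries alone, a replicate block, each library left out and no limit on the change. Dividing out the factor and shares of fragments were added after seeing the data. Promoter sequences were not analysed here. The result of 1 gene is not reported here.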

Additional observations from a re-analysis of the deposited data

How the results depend on the processing

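The number of genes called was 1999 with limma on log2 of FPKM plus 1, which shrinks changes of weak genes, with 1109 called down, against 3133 with a pseudocount of 0.1. Without a limit on the change it was 11044, with 5366 up and 5678 down. Leaving out each library in turn gave 3185 to 3581 genes called, 1224 to 1344 up and 1897 to 2244 down, and 155 to 171 listed genes that rose and 145 to 160 that fell. The other alternatives gave 2630 to 3689 called. The numbers do not pair the samples (correlation of deviations 0.0611, over 2 shared numbers), and with the replicate block 3540 genes were called.

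Of 313 single genes, 257 kept their direction and side of the threshold under every alternative, and 22 changed only when a library was left out. With each library left out in turn, the change ran from −0.25 to 6.12 at OsDREB1B, −1.59 to 4.26 at OsDREB1A, −3.17 to 2.47 at OsDREB1E, −0.60 to 0.88 at OsNAC3 and −0.91 to 3.76 at LOC_Os01g64470, the lowest being without drought replicate 1 and the highest without drought replicate 2. At TPP1 it ran from −1.11 without drought replicate 1 to 0.46 without drought replicate 2, and at LOC_Os01g09220 from −1.36 without drought replicate 1 to 6.47 without normal replicate 2. At LOC_Os08g24200, where FPKM and counts disagree, limma gave −1.23 and −1.25. The causes were not tested. As a share of fragments rather than of FPKM, Calvin cycle genes went from 0.987 to 0.561% and antenna genes from 1.68 to 1.5%. Counts of list members stayed within 1.5 times in 1838 comparisons with an alternative and moved further in 100. Only 5 cell cycle genes fell with limma on log2 of FPKM plus 1, and 4 clock genes fell with DESeq2.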
